A study of Mus musculus with 20 samples.

Results

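The keratin genes are described here across the outer eyecups (RPE/choroid) of WT and Stra6-/- mice on vitamin A-sufficient (VAS) or vitamin A-deficient (VAD) diets. A gene was taken as a member when its symbol was Krt followed by a number and at most 1 letter and its normalized values summed to at least 5 over the 20 libraries. This gave 38 keratin genes of 52 keratin rows, and of 18745 genes with such a sum among 24411 rows. The rule used no difference between groups. The nearest genes under the sum were Krt71 (4.386), Krt9 (4.011) and Krt77 (3.378), and the lowest members were Krt35 (8.881), Krt34 (9.91) and Krt25 (12.98). The 4 groups of 5 libraries were VAS WT, VAD WT, VAS Stra6-/- and the libraries labelled VAD Stra6-/-. All mice were labelled C57BL/6, the Stra6-/- mice being on a C57BL/6J background by the study's methods, and ate their diet for 12 weeks after weaning, with 4 IU vitamin A per g in the VAS diet and 0 IU per g in the VAD diet. Stra6 encodes the membrane transporter through which cells take up vitamin A from retinol-binding protein. By the study's methods each library came from both eyecups of 1 mouse, WT mice were purchased while Stra6-/- mice were bred in-house, and the eyecup was prepared by removing the anterior segment, vitreous and retina. Genotype and source colony therefore cannot be told apart. The normalized value of a gene is its RSEM read count divided by 1 DESeq2 size factor per library. Differences between groups are log2 fold changes of the value + 1 from limma, given with their standard error (SE) and a p-value adjusted over all genes tested.

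Keratins are the intermediate filament proteins of epithelial cells. A filament forms only when an acidic type I keratin pairs with a neutral or basic type II keratin, so that most epithelia express defined pairs, and the filaments are anchored to desmosomes between cells and to hemidesmosomes at the basement membrane. Krt8 and Krt18 are the pair of simple, single-layered epithelia, to which the RPE belongs. Krt5 with Krt14 or Krt15 marks the basal layer of stratified epithelia, Krt12 is the keratin of the corneal epithelium, and Krt4 with Krt13 is the pair of mucosal stratified epithelia such as the conjunctiva. Krt6a, Krt6b, Krt16 and Krt17 are known from hair follicles and from wounded or hyperproliferative epithelium, Krt1 and Krt10 from the upper layers of the epidermis, and many further members from the hair shaft. Vitamin A has long been known to influence which keratins ocular surface epithelia make.

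In GENCODE vM21 (GRCm38), 37 of the 38 members were found. Of these, 21 lie on chromosome 11 between 99232761 and 100269871 and are all type I genes, and 16 lie on chromosome 15 between 101347444 and 102032027. The chromosome 15 group holds 15 type II genes and 1 type I gene, Krt18, which lies next to Krt8. The type I gene Krt12 lies on the minus strand of chromosome 11 from 99415666 to 99422259, the type II gene Krt5 on the minus strand of chromosome 15 from 101707070 to 101712898, Krt8 on the minus strand of chromosome 15 from 101996698 to 102004482 and Krt18 on the plus strand from 102028180 to 102032027. Reads were assigned to close relatives with some uncertainty: of the 100-base words in their transcripts, Krt6a shared 29.5% with Krt6b and Krt6b shared 30.1% with Krt6a, so their separate values are uncertain, whereas Krt14 shared 2.88% with Krt16 and Krt5 shared 2.38% with Krt6a. Krt12, Krt80, Krt6a, Krt10, Krt32 and Krt7 overlap annotated antisense transcripts, and the start of Krt8 overlaps a non-coding RNA on the other strand. Whether reads were counted by strand is not given in the sources used here, so reads of these genes and of their antisense partners cannot be told apart.

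The upstream sequences of 4 members are shown because the results turn on them: Krt8 and Krt18 were higher in the libraries labelled VAD Stra6-/-, and Krt5 and Krt12, abundant keratins of stratified epithelium, were lower. Sequences are from RefSeq (GRCm38.p6) and read 5′ to 3′ on the strand of the gene. In each the 250 bases before the RefSeq start were searched, bases that lie inside the GENCODE gene are left out, and capitals mark matches to TATAAA (the TATA box), TGANTCA (an AP-1 type motif), GGGCGG (a GC box) or AGGTCA (a nuclear receptor half-site), sought on both strands.
Krt8 (chr15:102004483-102004592, minus strand): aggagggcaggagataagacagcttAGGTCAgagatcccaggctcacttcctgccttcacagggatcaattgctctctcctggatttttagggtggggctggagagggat
Krt18 (chr15:102027966-102028179, plus strand): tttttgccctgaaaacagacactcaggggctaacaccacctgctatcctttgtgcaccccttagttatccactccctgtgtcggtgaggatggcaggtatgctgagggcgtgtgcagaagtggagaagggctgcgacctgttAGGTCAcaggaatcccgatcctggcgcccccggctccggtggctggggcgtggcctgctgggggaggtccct
Krt5 (chr15:101712906-101713155, minus strand): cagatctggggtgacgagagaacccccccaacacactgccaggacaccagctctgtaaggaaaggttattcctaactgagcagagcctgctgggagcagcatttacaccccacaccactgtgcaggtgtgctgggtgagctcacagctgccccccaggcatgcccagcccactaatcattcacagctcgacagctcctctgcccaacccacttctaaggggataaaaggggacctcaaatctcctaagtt
Krt12 (chr11:99422260-99422509, minus strand): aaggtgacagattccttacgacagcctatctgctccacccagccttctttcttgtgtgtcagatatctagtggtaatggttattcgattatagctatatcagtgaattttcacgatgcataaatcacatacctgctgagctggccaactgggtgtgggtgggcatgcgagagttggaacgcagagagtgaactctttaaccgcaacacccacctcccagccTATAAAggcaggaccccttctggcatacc
AGGTCA was found 225 bases before the start of Krt8 and 108 bases before that of Krt18, TATAAA 29 bases before that of Krt12, and none of the 4 motifs in the Krt5 window. RefSeq windows were matched for 23 of the 38 members. AGGTCA was present in 7 of these 23 and in 14% of 32851 windows of the same length over all genes, TATAAA in 10 of 23 and 12.4%, TGANTCA in 1 of 23 and 6.75%, and GGGCGG in 2 of 23 and 32.7%. The matches are a description of letters in these windows.

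Before the values are read, 3 properties of the libraries bear on them. The 20 libraries held 13331903 to 21878614 reads. Stra6 was at 2591 ± 149 (SD, n = 5) in VAS WT, 986 ± 415 in VAD WT and 629 ± 49.8 in VAS Stra6-/-. In the libraries labelled VAD Stra6-/- it was at 2163 ± 154, higher than in VAD WT (log2 fold change 1.23, limma adjusted p = 3.88e-06), although the label names the knockout. The summed value of 10 RPE marker genes was also highest there, with a mean of 580284. Its mean was 139052 in VAS WT, 60620 in VAD WT and 154460 in VAS Stra6-/-. By the study's account STRA6 is a protein of the RPE, and the part of RPE content in the Stra6 level was not tested. In VAD WT, replicates 2 and 4 stood apart from replicates 1, 3 and 5: the female transcript Xist was at 10912 and 11767 in the former and at 174 to 234 in the latter, and the Y-linked Ddx3y at 75.2 and 80.5 against 1041 to 1133. Xist was at 7.69 to 38.4 in VAS WT and at 15320 to 18052 in VAS Stra6-/-, and the libraries labelled VAD Stra6-/- held both Xist (3570 to 4280) and Ddx3y (741 to 970). The sex-linked transcripts thus differ between the groups compared, and their part in the keratin results was not tested.

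Keratin transcripts made up a large share of all normalized values, and one group had far less of them. The sum over the 38 members was 4.39%, 4.53%, 4.33%, 4.70% and 4.18% of all values in VAS WT, and 4.97%, 4.93%, 4.93%, 5.06% and 5.09% in VAS Stra6-/-. In VAD WT it was 5.30%, 2.46%, 5.16%, 2.45% and 5.22%, so that replicates 2 and 4 held less than any VAS library and replicates 1, 3 and 5 more. In the libraries labelled VAD Stra6-/- the share was only 0.276%, 0.250%, 0.281%, 0.253% and 0.316%, well below every other library. These are bulk samples, in which fewer cells of a type and less RNA per cell cannot be told apart.

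**Figure D1:**
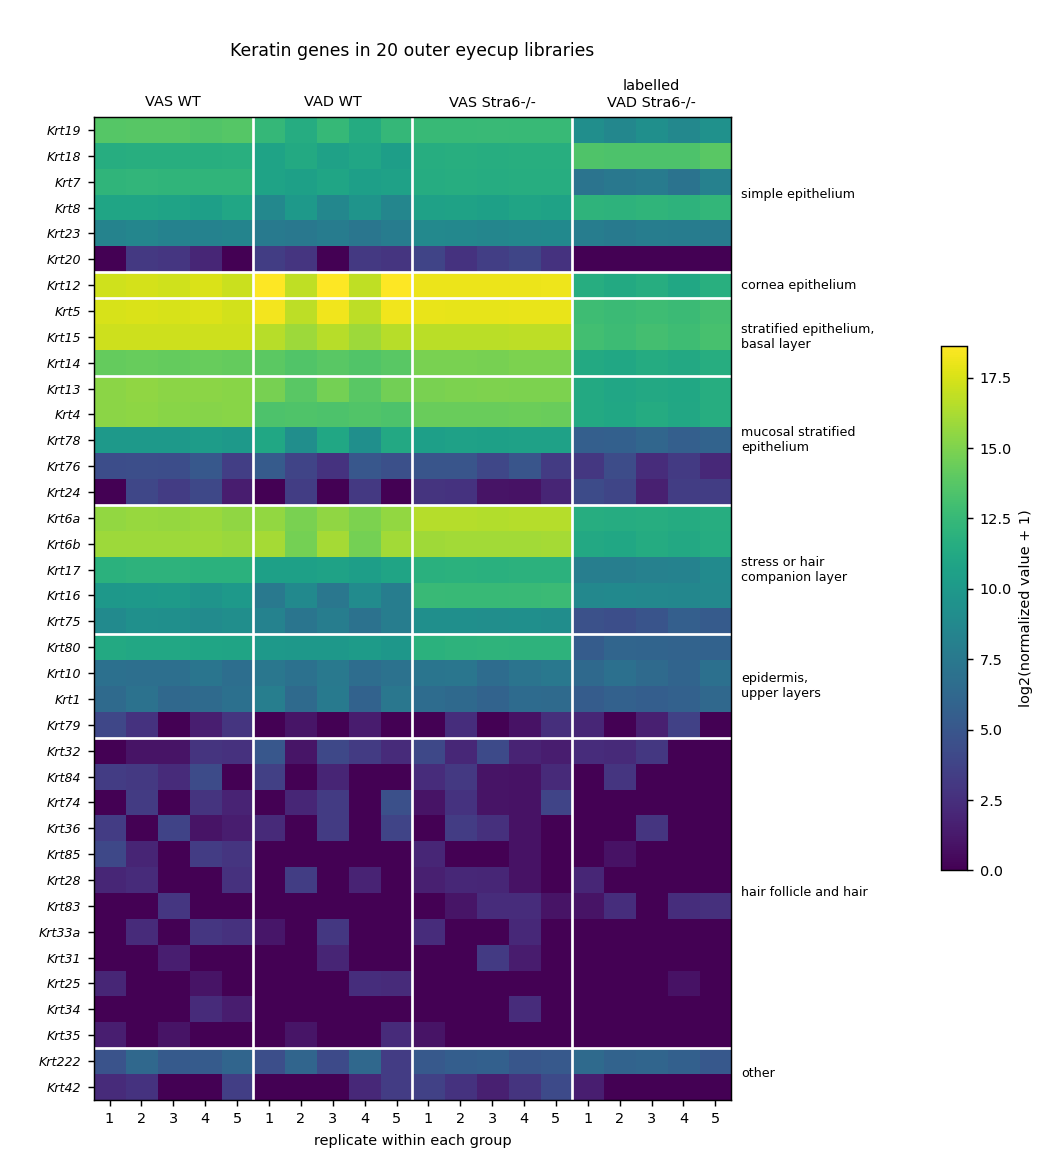
Each row is 1 of the 38 keratin genes, each column 1 library (5 replicates in each of 4 groups), and the colour is log2(normalized value + 1); rows are grouped by the epithelium in which the keratin is best known. The 5 libraries labelled VAD Stra6-/- are darker for most rows with high values and brighter for Krt8 and Krt18, and VAD WT replicates 2 and 4 differ from the other 3 of their group for Krt12 and Krt5.

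The pool was led by keratins of stratified epithelium in 3 groups and by a simple-epithelium keratin in the other. Krt5 and Krt12 led the list in VAS WT, with means of 24.8% and 21.9% of the keratin sum, and after Krt15 came Krt6b (8.12%), Krt6a (6.89%), Krt13 (5.75%) and Krt4 (5.51%). On a scale corrected for transcript length, the values per kb of exon in VAS WT were 89097 for Krt12, 84969 for Krt15 and 84920 for Krt5, against 2279.8 for Krt18 and 943 for Krt8. Krt8 and Krt18 together made up 0.686%, 0.677%, 0.683%, 0.583% and 0.795% of the keratin sum in the VAS WT libraries and 0.516% to 0.549% in VAS Stra6-/-. In VAD WT their share was 0.216%, 0.892%, 0.206%, 0.734% and 0.176%. It was 32.0%, 33.6%, 31.0%, 33.6% and 33.6% in the libraries labelled VAD Stra6-/-, where Krt18 was the most abundant keratin (23.7%), ahead of Krt15 (16.2%), Krt5 (14.6%) and Krt8 (9.03%). Since shares add up to 100% by construction, they show unequal change and not which member moved.

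**Figure D2:**
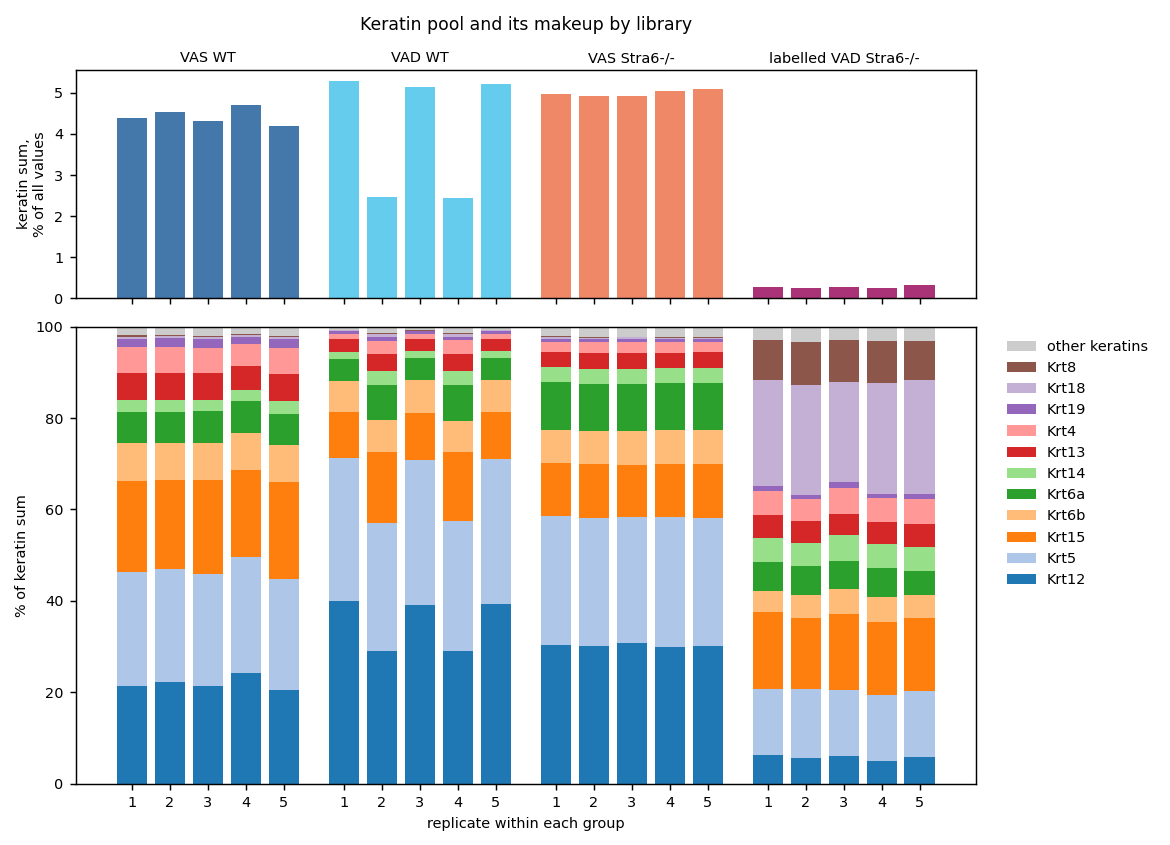
The upper bars give the summed keratin values of each library as a percent of all its normalized values, and the lower bars split that sum by gene. The libraries labelled VAD Stra6-/- hold 0.250% to 0.316% against at least 2.45% elsewhere, and Krt8 with Krt18 fill 31.0% to 33.6% of their bars.

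The comparison of VAS Stra6-/- with VAS WT asks what loss of the transporter does while the diet supplies vitamin A. Source colony and the sex-linked transcripts differ between these groups as well, and cannot be told apart from genotype. Of the 38 keratin genes, 5 were higher and 6 lower in VAS Stra6-/- at a limma adjusted p under 0.05, which is what called means here and below, where 15.9% of all 18745 genes were called higher and 10.8% lower. The shares for the keratins, 13.2% and 15.8%, lie near this background. The median log2 fold change was -0.05 over the 38 members and 0.02 over all genes. The genes called were not of a single kind. Krt16 and Krt6a, 2 of the 5 stress or hair companion members, rose and the other 3 were not called. The basal keratin Krt14 also rose. Of the mucosal members 2 of 5 fell, and of the simple-epithelium members 2 of 6, with 1 simple-epithelium member higher.

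Krt16, a type I keratin induced in wounded epidermis, had the largest change. Its values were 946, 1027, 1109.8, 782 and 1002 in VAS WT and 6347, 6039, 5881, 6427 and 6601 in VAS Stra6-/-, so that the groups were far from overlapping, with a log2 fold change of 2.69 ± 0.23 SE (adjusted p = 2.35e-08, limma). It was the only keratin called with a log2 fold change beyond 2 in this comparison, where 0.763% of all genes were higher and 0.341% lower by that rule. Krt6a, a type II partner of Krt16, was at 50434, 53522, 50976, 56508 and 47519.9 in VAS WT and at 94686, 92972, 91893, 96024 and 97338 in VAS Stra6-/-. It rose by 0.87 ± 0.13 SE on the log2 scale (adjusted p = 2.75e-05, limma), and no VAS Stra6-/- library reached down to the WT values. Its relative Krt6b stood at 60956 ± 2862 and 67179 ± 1645 (SD, n = 5), which did not overlap but did not pass the test (log2 fold change 0.14, adjusted p = 0.699).

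Krt14, a basal type I keratin, was at 19192, 19645, 19266, 20005 and 19442 in VAS WT and at 29810.5, 29571, 28907, 30907 and 31039.7 in VAS Stra6-/-, higher in every library by a log2 fold change of 0.62 ± 0.09 SE (adjusted p = 2.75e-05, limma). Krt15, the other basal type I member, went the opposite way. It had 146951, 150154, 152786, 152624 and 148182 in VAS WT and 107465, 107368, 103645, 109200.0 and 110447 in VAS Stra6-/-, for a log2 fold change of -0.48 ± 0.15 SE (adjusted p = 0.0251), without overlap. Krt80, a type II keratin of differentiating epithelia, rose from 2502, 2247, 2341, 2003 and 1879.9 to 3822, 4267, 4319, 4191 and 4107 (log2 fold change 0.92 ± 0.11 SE, adjusted p = 2.16e-06), and Krt23, an inducible type I keratin, from 323 ± 28.5 to 421 ± 26.8 (SD, n = 5; log2 fold change 0.38, adjusted p = 0.0131).

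The mucosal pair fell together. Krt4 was at 41572, 44533, 40929, 39259 and 40120.0 in VAS WT and at 21097, 21267, 21472, 22128 and 21370.2 in VAS Stra6-/-, for a log2 fold change of -0.94 ± 0.09 SE (adjusted p = 9.22e-08, limma). Krt13 was at 43125 ± 1900.5 and 31306 ± 1146 (SD, n = 5), a log2 fold change of -0.46 ± 0.15 SE (adjusted p = 0.031). All VAS Stra6-/- libraries were below all VAS WT libraries for both. A pair of members known from simple and glandular epithelium fell as well, Krt19 from 13671, 14321, 14202, 12255 and 13609.9 to 6068, 5983, 6197, 5999.7 and 6068 (log2 fold change -1.16 ± 0.19 SE, adjusted p = 6.94e-05) and Krt7 from 4642 ± 101 to 3018 ± 106 (SD, n = 5; log2 fold change -0.62, adjusted p = 0.00201). The call for Krt13 was lost when any of 8 single libraries was left out, with adjusted p-values of 0.0504 to 0.0672, and that for Krt15 without VAS Stra6-/- replicate 3 (adjusted p = 0.0511). Without the libraries labelled VAD Stra6-/- in the fit, the adjusted p was 0.0642 for Krt13 and 0.0971 for Krt15.

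The simple-epithelium pair of the RPE did not pass the test. Krt8 was at 1917, 1984, 1794, 1486 and 2052 in VAS WT and at 1634, 1672, 1567, 1880.0 and 1696 in VAS Stra6-/- (log2 fold change -0.12 ± 0.20 SE, adjusted p = 0.715), and Krt18 at 3145, 3265, 3252, 3216 and 3504 against 3141, 3180.3, 3094, 3227 and 3197 (log2 fold change -0.05 ± 0.12 SE, adjusted p = 0.817). The groups overlapped for both. Krt12, the corneal keratin, was at 157795, 172162, 157376, 194875 and 142834 in VAS WT and at 275953, 271708, 278386, 278383 and 283743 in VAS Stra6-/-, and Krt5, the basal type II keratin, at 184697, 192482, 180661, 205231 and 169775 against 256772, 253786, 248808, 263984 and 262838. All 5 VAS Stra6-/- libraries were above all VAS WT libraries for each, yet neither was called, with log2 fold changes of 0.76 ± 0.30 SE (adjusted p = 0.07) for Krt12 and 0.47 ± 0.26 SE (adjusted p = 0.203) for Krt5. The fit takes 1 spread per gene from all 4 groups, VAD WT included. With VAD WT replicates 2 and 4 left out of the fit, 9 keratins were called higher in place of 5, Krt12, Krt5, Krt78 and Krt20 among them. By non-overlap alone, 9 keratins were higher and 5 lower, against 19.4% and 13.2% of all genes.

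The comparison of VAD WT with VAS WT asks what dietary deprivation does while the transporter is present. No keratin was called higher and 14 of 38 were called lower, where 3.29% of all genes were called higher and 5.52% lower. The median log2 fold change was -0.64 over the members and 0.00 over all genes. By non-overlap 13 keratins were lower and none higher, against 4.23% and 2.13% of all genes. The lower members came from most groups of keratins, simple (5 of 6), basal (2 of 3), mucosal (2 of 5) and stress or hair companion (3 of 5). Both comparisons with VAS WT share its 5 libraries.

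Krt4 had a similar low level in all VAD WT libraries, at 10768, 11551, 10678, 12018 and 10716, against 39259 to 44533 in VAS WT. The log2 fold change was -1.89 ± 0.09 SE (adjusted p = 1.16e-11, limma), and the split within VAD WT seen for other members was small here. Its partner Krt13 was at 28656, 15134, 26678, 15022 and 25671 in VAD WT against 40855 to 45988 in VAS WT, a log2 fold change of -1.01 ± 0.15 SE (adjusted p = 0.000166). Krt80 was also low throughout, at 1028, 993, 955, 1181 and 906 (log2 fold change -1.11 ± 0.11 SE, adjusted p = 5.67e-07). Krt17, a type I keratin of hair follicles and stressed epithelium, fell to 1531, 1502, 1701, 1385 and 1828 from a mean of 3921 (log2 fold change -1.31 ± 0.13 SE, adjusted p = 5.77e-07), and Krt7 to 1766, 1516, 2016, 1476 and 1587 from a mean of 4642 (log2 fold change -1.48, adjusted p = 3.14e-07). For these 5 genes no VAD WT library reached the lowest VAS WT library.

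Krt16, which was higher in VAS Stra6-/-, was lower here, at 184, 462, 162, 510.1 and 231 against 782 to 1109.8 (log2 fold change -1.80 ± 0.23 SE, adjusted p = 1.41e-05, limma). Krt19 was at 5442, 2892, 5546, 2739.7 and 5329 against 12255 to 14321 (log2 fold change -1.70 ± 0.19 SE, adjusted p = 2.49e-06), and Krt75, a companion layer keratin, at 209 ± 70.8 against 571 ± 74.8 (SD, n = 5; log2 fold change -1.50, adjusted p = 0.000115). The basal type I members fell less, Krt14 to 15226, 11959, 14512, 11781 and 14950.4 (log2 fold change -0.52 ± 0.09 SE, adjusted p = 0.000707) and Krt15 to 100573, 61523, 100263, 59044 and 99009 (log2 fold change -0.88 ± 0.15 SE, adjusted p = 0.000731). The call for Krt15 did not hold in a fit of only these 2 groups (adjusted p = 0.142). Krt23 was at 194 ± 27.3 (SD, n = 5; log2 fold change -0.74, adjusted p = 0.000122).

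The simple-epithelium pair also fell. Krt8 was at 411, 1002, 382, 786 and 372 in VAD WT, all below the lowest VAS WT value of 1486, with a log2 fold change of -1.76 ± 0.20 SE (adjusted p = 4.65e-06, limma). Krt18 was at 1749.5, 2533, 1625, 2103 and 1349, all below the lowest VAS WT value of 3145, with a log2 fold change of -0.84 ± 0.12 SE (adjusted p = 6.99e-05). Replicates 2 and 4 were the highest of VAD WT for both. Of 10 RPE marker genes that are not keratins, 8 were called lower too, and their summed value was 42576, 86606, 44417, 83983 and 45517 in VAD WT against 133153 to 149923 in VAS WT. The part of RPE content in the result for Krt8 and Krt18 was not tested.

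Krt12 and Krt5 split VAD WT into 2 sets. Krt12 was at 400653, 381262 and 384665 in replicates 1, 3 and 5 and at 114762 and 113908 in replicates 2 and 4, above and below all 5 VAS WT libraries (142834 to 194875). Krt5 was at 313149, 310470 and 311287 against 111493 and 112484, again on either side of VAS WT (169775 to 205231). Krt6b (69919.7, 69528 and 68547 against 27452 and 27253) and Krt78, a mucosal type II keratin (2189, 2174 and 2449 against 593 and 603), had the same split. Over all 5 libraries none of these 4 was called, with log2 fold changes of 0.54 for Krt12 (adjusted p = 0.319), 0.15 for Krt5 (0.789), -0.35 for Krt6b (0.391) and 0.28 for Krt78 (0.656). Without replicates 2 and 4, 6 keratins were called higher and 16 lower. The 6 were Krt12 (log2 fold change 1.24, adjusted p = 1.1e-08), Krt5 (0.74, 2.73e-08), Krt78 (1.04, 2.21e-08), Krt1 (1.05, 0.00174), Krt6b (0.19, 0.0323) and the little-expressed Krt32 (2.33, 0.0407). The diet result for these members thus rests on which VAD WT libraries are used, while Krt4 (-1.94), Krt8 (-2.24), Krt16 (-2.34), Krt18 (-1.06) and Krt14 (-0.39) were lower either way.

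**Figure D3:**
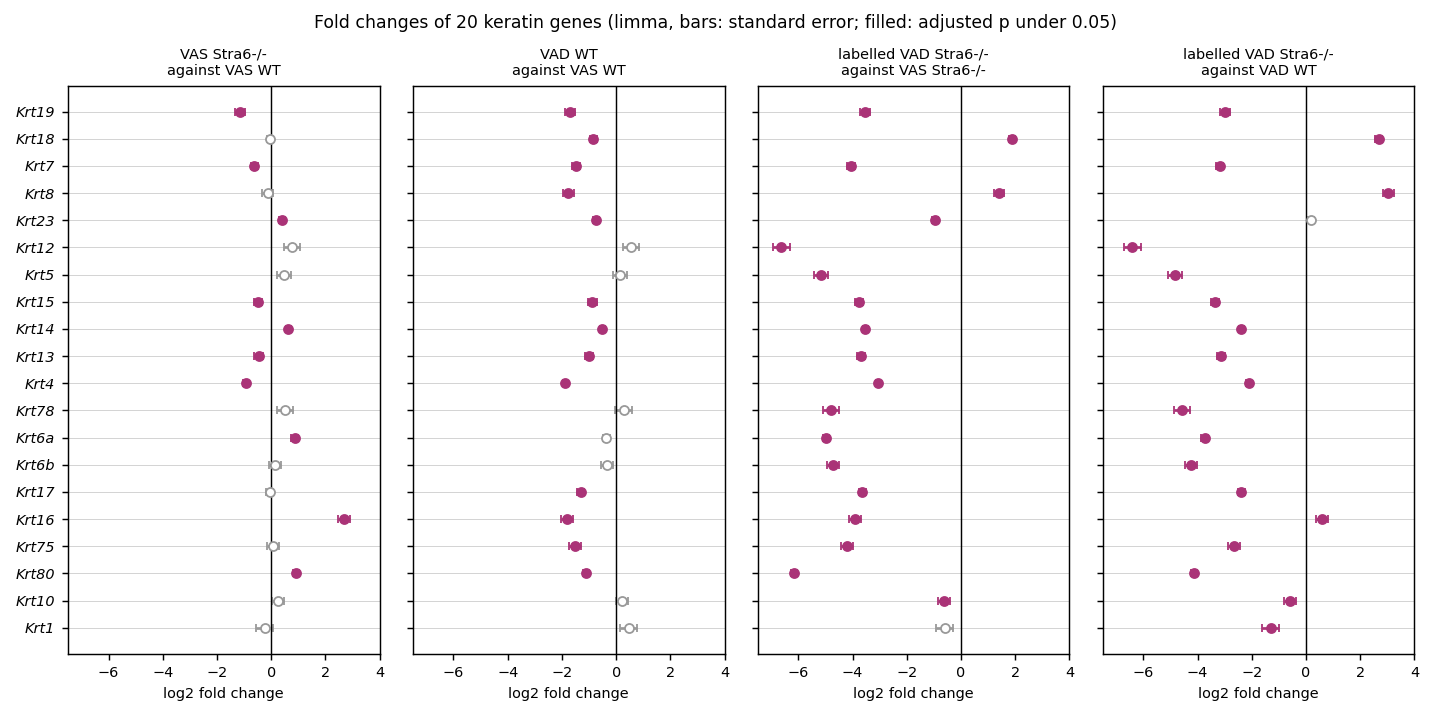
Points are limma log2 fold changes of the 20 keratin genes with a mean normalized value of at least 100 in a group, bars are standard errors, filled points have an adjusted p under 0.05, and each panel is 1 comparison of 5 libraries with 5. The 13 filled points for VAD WT against VAS WT all lie below 0, and in both panels for the libraries labelled VAD Stra6-/- Krt8 and Krt18 lie above 0 while most other members lie below it.

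The libraries labelled VAD Stra6-/- held the largest keratin differences of the 4 comparisons. Against VAS Stra6-/-, which by the labels asks what the diet does without the transporter, 2 keratins were called higher and 20 lower, where 24.5% of all genes were called higher and 28.9% lower. Against VAD WT, which by the labels asks what the genotype does under deprivation, 5 were higher and 18 lower, where 26.3% and 29.7% of all genes were. The median log2 fold changes of the members were -1.37 and -1.29, against -0.07 and -0.05 over all genes. By non-overlap 2 were higher and 19 lower against VAS Stra6-/- (24.6% and 26.9% of all genes), and 2 higher and 14 lower against VAD WT (18.4% and 19.1%). With a log2 fold change beyond 2 as well, 3 were higher and 15 lower than in VAD WT, where 3.53% and 6.88% of all genes were. The study gave this rule for its tests of differential expression and of pathways. Beside Krt8 and Krt18, the higher genes included Krt24, which rests on a few reads, at 2.0046 (adjusted p = 0.0475, limma). Both comparisons share the 5 labelled libraries.

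Only Krt8 and Krt18 rose in both. Krt8 was at 4363, 4189.9, 4570.3, 4132 and 5069.8 in the labelled libraries, above the highest value of any other group (2052), with log2 fold changes of 1.40 ± 0.20 SE against VAS Stra6-/- (adjusted p = 4.51e-06, limma) and 3.04 ± 0.20 SE against VAD WT (adjusted p = 3.7e-11). Krt18 was at 11454, 10706, 11142, 10968 and 14559, above the highest value elsewhere (3504), with log2 fold changes of 1.88 ± 0.12 SE (adjusted p = 1.48e-11) and 2.68 ± 0.12 SE (adjusted p = 6.36e-14). The summed value of the 10 RPE markers moved with the pair, being 558100 to 602951 in these libraries and at most 157265 in any other. Of the 10 markers 9 were called higher in both comparisons, Rpe65, the isomerase of the retinoid cycle, by 2.93 and 4.41 on the log2 scale. The log2 ratio of Krt18 to this RPE sum was -5.73 to -5.37 in the labelled libraries and -5.62 to -5.60 in VAS Stra6-/-, ranges that meet, against -5.44 to -5.37 in VAS WT and -5.32 to -4.61 in VAD WT. That of Krt8 was -7.09 to -6.89, below the -6.58 to -6.38 of VAS Stra6-/- and the -6.49 to -6.10 of VAS WT and meeting the -6.94 to -6.43 of VAD WT only in replicate 5 of each. How far RPE content accounts for the rise of the pair was not tested.

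Of the 20 keratins with a mean of at least 100 in a group, 17 were called lower against VAS Stra6-/- and 16 against VAD WT. Krt1, which is among the 16, met that level only in VAD WT, with a mean of 151. The share of all genes at that level was not computed, so these counts are a description. Krt12 was at 3140.4, 2472, 3029.8, 2179 and 3433, where no other library was under 113908. Its log2 fold change was -6.62 ± 0.30 SE against VAS Stra6-/- (adjusted p = 7.5e-14, limma), a 98.7-fold difference, and -6.40 ± 0.30 SE against VAD WT (adjusted p = 1.68e-13). Krt5 was at 7130.2, 6738, 7377, 6495 and 8438, with log2 fold changes of -5.16 ± 0.26 SE (adjusted p = 3.41e-13) and -4.84 ± 0.26 SE (adjusted p = 1.01e-12). The lowest value of Krt5 in any other library was 111493. Krt80 was at 41.3, 67.7, 61.4, 60.6 and 55.8, below every other library, with log2 fold changes of -6.17 ± 0.11 SE against VAS Stra6-/- (adjusted p = 2e-20) and -4.13 against VAD WT. Krt78 was at 48.4, 52.3, 69.6, 49.2 and 58.3, with log2 fold changes of -4.80 and -4.57 (adjusted p = 1.69e-11 and 4.15e-11).

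The other members with high levels were lower as well. Krt6a was at 3115, 2875, 3119.9, 2832 and 3041 (log2 fold changes -4.98 and -3.74) and Krt6b at 2348, 2214, 2764, 2423 and 2912 (-4.74 and -4.25). Krt15 was at 8249.6, 6837, 8382, 7281 and 9343 (-3.75 and -3.36) and Krt14 at 2564, 2219.9, 2830.2, 2395 and 3073 (-3.53 and -2.39). The mucosal pair stood at 2523, 2154, 2856, 2308 and 3117 for Krt4 (-3.06 and -2.12) and at 2539, 2105, 2426, 2187 and 3033 for Krt13 (-3.68 and -3.13). In these 6 genes every labelled library was below every library of the other 3 groups. Among the rest, Krt17 was at 253, 244, 285, 298 and 482 (-3.64 and -2.38), Krt19 at 600.5, 384, 616, 406 and 674 (-3.53 and -3.00), Krt7 at 145, 172, 209, 133 and 282 (-4.05 and -3.19) and Krt75 at 23.2, 21.6, 27.6, 48.3 and 40.6 (-4.22 and -2.66). These 4 were also below every other library, and all 20 of these log2 fold changes were called (the largest limma adjusted p was that of Krt75 against VAD WT, 1.6e-09).

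A few members did not follow. Krt16 was at 404, 445, 421, 389 and 427, far below VAS Stra6-/- (log2 fold change -3.90, adjusted p = 3.43e-12, limma) but within the range of VAD WT (162 to 510.1), from which it was called higher by 0.59 ± 0.23 SE (adjusted p = 0.0314). That call was lost with edgeR (adjusted p = 0.17) and DESeq2 (0.122) on the recovered reads, in the fit of only these 2 groups (0.162) and without any of 6 single libraries, with adjusted p-values of 0.0534 to 0.121. Without VAD WT replicates 2 and 4, the difference was 1.13 (adjusted p = 2.27e-09), since replicates 1, 3 and 5 were at 162 to 231. Krt23 was at 241, 190.3, 231, 221 and 208, lower than in VAS Stra6-/- by 0.95 (adjusted p = 2.33e-07) and close to VAD WT (log2 fold change 0.18 ± 0.11 SE, adjusted p = 0.186). The epidermal pair differed less: Krt10 was at 82.6, 116, 86.0, 61.4 and 118, with log2 fold changes of -0.62 (adjusted p = 0.0197) and -0.59 (adjusted p = 0.0247), and Krt1 at 42.3, 55.0, 46.1, 52.7 and 76.9, with -0.60 (adjusted p = 0.113) and -1.30 (adjusted p = 0.00125). Both overlapped the groups they were compared with. The calls for Krt10 against VAS Stra6-/- were lost without VAS Stra6-/- replicate 5 or labelled replicate 4, and those against VAD WT without VAD WT replicate 1 or 3 or labelled replicate 4 and in a fit of only these 2 groups (adjusted p = 0.0588 to 0.0828 over these settings).

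**Figure D4:**
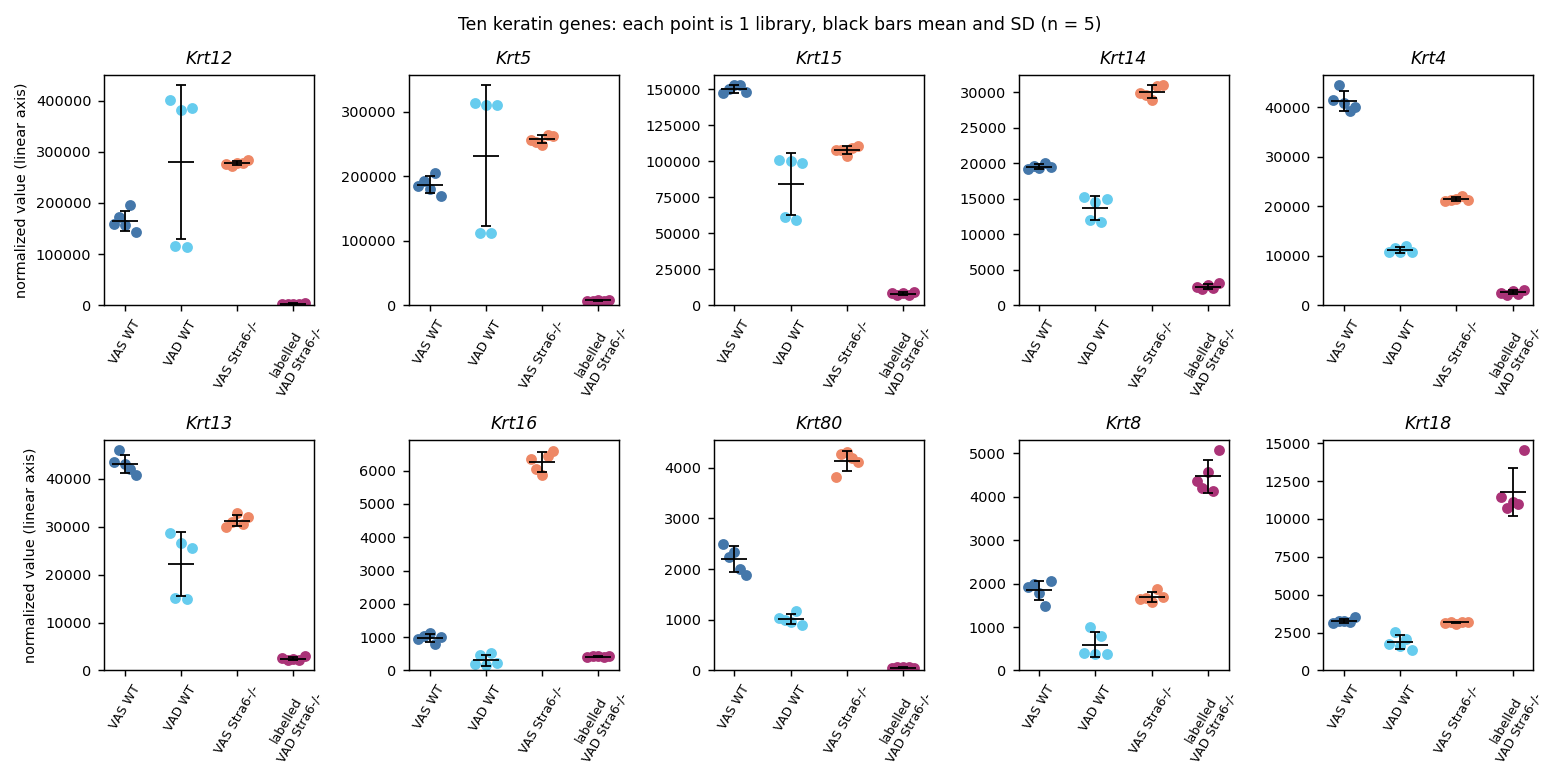
Each panel is 1 keratin gene on a linear axis from 0, each point is the normalized value of 1 library, and black bars are the mean and SD of 5. Krt12 and Krt5 split the VAD WT libraries into 3 high and 2 low, Krt4 is alike in all 5 of them, and Krt8 and Krt18 are highest in the libraries labelled VAD Stra6-/-.

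The genotype-by-diet interaction, the diet difference among the Stra6-/- groups minus that among the WT groups, was called higher for 2 keratins and lower for 18, where 19.6% and 24.9% of all genes were. The 2 were Krt8 (3.16 ± 0.29 SE, adjusted p = 9.19e-09, limma) and Krt18 (2.72 ± 0.17 SE, adjusted p = 2.73e-11), which fell with the VAD diet in WT and were higher in the labelled libraries. The most negative values were those of Krt12 (-7.16 ± 0.43 SE, adjusted p = 1.64e-11), Krt5 (-5.31 ± 0.37 SE), Krt78 (-5.08 ± 0.43 SE) and Krt80 (-5.05 ± 0.15 SE). For Krt4 the value was -1.17 ± 0.12 SE (adjusted p = 8.47e-08), and Krt4 was also lower in VAD WT. The call for Krt10 (-0.84) was lost without any of 6 single libraries, with adjusted p-values of 0.0512 to 0.0609. Krt23 and Krt1 were not called (-0.21, adjusted p = 0.31, and -1.06, adjusted p = 0.0569). Because the interaction uses all 4 groups, it carries the doubt over the labelled libraries and the split of VAD WT. Without VAD WT replicates 2 and 4, Krt222 and Krt24 were called higher as well, giving 4 genes.

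Ratios within a library compare keratins free of its size factor. The log2 ratio of Krt12 to Krt5 was -0.25 to -0.07 in VAS WT, 0.02 to 0.36 in VAD WT, 0.08 to 0.16 in VAS Stra6-/- and -1.58 to -1.18 in the labelled libraries, so that Krt12 fell further than Krt5 there. The log2 ratio of Krt4 to Krt5 was -2.39 to -2.08 in VAS WT and -3.62 to -3.53 in VAS Stra6-/-. In VAD WT it was -4.86, -3.27, -4.86, -3.23 and -4.86, below VAS WT in all 5 libraries, and in the labelled libraries -1.65 to -1.37, above VAS WT. The log2 ratio of Krt18 to Krt8, the partners of a filament pair, was 0.71 to 1.11 in VAS WT, 0.78 to 0.98 in VAS Stra6-/-, 1.34 to 2.09 in VAD WT and 1.29 to 1.52 in the labelled libraries. It was higher in every library of the 2 VAD-labelled groups than in any of the VAS groups. That of Krt5 to Krt14, the basal pair, was 3.13 to 3.36 in VAS WT, 3.08 to 3.11 in VAS Stra6-/- and 1.38 to 1.60 in the labelled libraries, and in VAD WT it was 4.36, 3.22, 4.42, 3.26 and 4.38. Krt19 to Krt14 was -0.71 to -0.44 in VAS WT and between -2.56 and -1.39 in all libraries of the other 3 groups.

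The other 18 members had mean values of at most 59.7 in any group, and many rest on a few reads. Among them 6 in VAD WT and 10 in the labelled libraries were at or under 3 reads in every library, against 3 in VAS WT and 4 in VAS Stra6-/-. With such genes set to the bound that 3 reads per library allow, or left out where both groups were that low, the median log2 fold change over the members was 0 for VAS Stra6-/- against VAS WT, -0.64 for VAD WT against VAS WT, -1.49 against VAS Stra6-/- and -1.29 against VAD WT for the labelled libraries. Krt20, a keratin of intestinal and urothelial surface cells, was at 13.2, 5.49, 10.2, 13.5 and 5.62 in VAS Stra6-/- and listed at 0 in all 5 labelled libraries, at least 3.44-fold lower, and at least 2.13-fold lower than in VAD WT. It was called in both comparisons. Krt85, a hair shaft keratin, was at 15.7, 2.88, 0, 8.78 and 6.25 in VAS WT and at 0 in all 5 VAD WT libraries, at least 1.94-fold lower (adjusted p = 0.00991), and it was called lower in VAS Stra6-/- too (adjusted p = 0.0219), though VAS WT overlapped both groups.

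Krt76, a mucosal type II keratin, was at 7.05, 18.9, 4.09, 7.90 and 3.38 in the labelled libraries and was called lower in both comparisons (adjusted p = 0.0277 and 0.0386), with overlap. Krt42 was called lower only against VAS Stra6-/- (adjusted p = 0.00545), where it was at 11.2, 5.49, 2.03, 5.91 and 16.9. Krt24 and Krt83 were called higher than in VAD WT (adjusted p = 0.0475 and 0.026). Krt24 was at 18.1, 13.5, 2.05, 9.66 and 9.30 against 0, 9.27, 0, 7.70 and 0, and Krt83 at 1.01, 4.51, 0, 4.39 and 5.07 against 0 in all 5 VAD WT libraries. Neither call was made when genes had to reach a mean of 10 in a group. Krt32 was called only in the interaction (adjusted p = 0.0466). Krt222, which is expressed outside epithelia, was at 25.5 to 78.8 in VAS WT, 9.10 to 75.3 in VAD WT, 31.2 to 50.8 in VAS Stra6-/- and 33.8 to 86.6 in the labelled libraries, and was called in none of the 4 group comparisons. Of the 12 hair keratins, at most 1 was called in any comparison.

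Genes that anchor keratin filaments were taken from lists chosen with earlier results of these data known. Of 13 desmosome genes, 10 were called higher in VAS Stra6-/- than in VAS WT, with Dsp, which links keratins to the desmosome, at a log2 fold change of 1.39 (adjusted p = 1.63e-08, limma) and the plakoglobin gene Jup at 0.77. In VAD WT only Dsg2 was called, lower by 0.71. The libraries labelled VAD Stra6-/- had 12 of the 13 lower in both comparisons, Dsp by -4.70 and -3.31, and only Pkp2 higher (1.17 and 1.23). Of 8 hemidesmosome and linker genes, 7 were higher in VAS Stra6-/-, Col17a1 by 1.41 and the linker Plec by 1.09, and all 8 were lower in the labelled libraries in both comparisons. In VAD WT, Dst was higher (0.35) and Eppk1 lower (-0.61). In VAS Stra6-/- most anchors thus moved in the direction of the 5 keratins called higher and against the 6 called lower. The sum of the 13 desmosome genes split VAD WT as Krt5 did, with 129180, 59138, 125172, 60716 and 126292.

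Of 16 transcription factors known to regulate epithelial keratins, 8 were higher and 1 lower in VAS Stra6-/-, none was called in VAD WT, and 15 and 16 were lower in the labelled libraries against VAS Stra6-/- and VAD WT. Trp63, the master regulator of stratified epithelium, changed by 0.85, 0.19, -5.46 and -4.81 on the log2 scale in the order of the comparisons above, Klf4, a regulator of epithelial differentiation, by 1.46, 0.30, -4.29 and -3.13, and Pax6, which is needed for Krt12 in the cornea and is also expressed in the retina and RPE, by -0.17, 0.21, -1.35 and -1.73. Of these 12 values the 3 in VAD WT and that of Pax6 in VAS Stra6-/- were not called. Among 9 partners and modifiers of keratins, 5 were higher and 1 lower in VAS Stra6-/-, none was called in VAD WT, and 6 and 4 were lower in the labelled libraries, with Csnk1a1 and Tchh higher than in VAD WT. Of 16 other intermediate filament genes, 3 were higher and 8 lower against VAS Stra6-/-, and 7 and 7 against VAD WT. Among those higher in both, vimentin (Vim) was at 24062 ± 1789 (SD, n = 5) in the labelled libraries against 8967 ± 269 in VAS WT, with log2 fold changes of 1.47 and 1.39.

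Markers of surface epithelium moved with part of the keratins. The 12 surface epithelium markers that are not keratins were all lower in the labelled libraries in both comparisons, and 6 were higher in VAS Stra6-/- than in VAS WT. None of the 12 was called in VAD WT, where 14 of 38 keratins were called lower and none higher. Their sum was 196004 to 243952 in VAS WT, 316879 to 328708 in VAS Stra6-/- and 11990.5 to 14255 in the labelled libraries. In VAD WT it was 436875, 147258, 425167, 144532 and 433830, with the same split as Krt12. Several of these markers also stand in the desmosome, hemidesmosome and regulator lists. Their most abundant genes were Aldh3a1, a corneal crystallin, with a mean of 122670 in VAS WT and 5507 in the labelled libraries, and Perp, with 26948 and 3876. The whole sum had means of 215377 and 13095 in these groups, so that ratios to it rest largely on Aldh3a1. By the study's methods the anterior segment, which carries the cornea, had been cut away. The log2 ratio of Krt4 to this sum was -2.64 to -2.29 in VAS WT, -3.94 to -3.86 in VAS Stra6-/-, -5.34 to -3.59 in VAD WT and -2.48 to -2.19 in the labelled libraries, and that of Krt16 was -8.28 to -7.56, -5.79 to -5.64, -11.4 to -8.15 and -5.06 to -4.75. Relative to the surface markers, Krt4 was thus lower in every library of VAD WT and VAS Stra6-/- than in VAS WT. Krt16 was higher relative to them in every VAS Stra6-/- library and every library labelled VAD Stra6-/-. In the labelled libraries the Krt16 value itself was 389 to 445, below the 782 to 1109.8 of VAS WT. The part of surface epithelium content in the keratin results was not tested.

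The remaining marker lists were small in level or moved otherwise. Goblet cell markers summed to 92.3 to 268 in the WT and VAS Stra6-/- libraries together and to 4.51 to 20.2 in the labelled ones, with the mucin gene Muc5ac at 0.356 ± 0.487 there. Agr2 made up most of this sum in VAS WT (mean 166 of 195). Spdef was at 7.17 ± 6.75 in VAS WT and 7.20 ± 5.30 in the labelled libraries (SD, n = 5). Of the 5 markers, 4 were called lower against VAS Stra6-/- and 2 against VAD WT. Of the cornified skin markers Flg2 and Lce1a1 were under the sum of 5, while Casp14 was at 91.2 ± 16.3 (SD, n = 5) in VAS WT and 1.37 ± 2.19 in the labelled libraries. Of the hair follicle markers, Hoxc13 and Krtap3-1, a gene of the hair shaft, were under the sum of 5, and the 2 that could be tested (Trps1 and Tchh) were higher than in VAD WT. Rod markers were lower in the labelled libraries for 2 and 3 of 4 genes, and endothelium markers higher for 2 of 4 in both comparisons. Lens markers summed to 5299 to 6534 in VAS WT, 865 to 994 in VAS Stra6-/-, 973 to 4150.1 in VAD WT and 1587 to 1974 in the labelled libraries, and skeletal muscle markers to 6038 to 7160, 16138 to 18177, 1503 to 6835 and 9832 to 11968. In VAD WT, replicates 2 and 4 had the higher muscle and rod sums and the lower lens sums. Of 4 markers of simple or glandular epithelium, 1 was lower and none higher in VAS Stra6-/- and in VAD WT, and 1 was higher and 2 lower in the labelled libraries in both comparisons. The 1 lower in the first pair of comparisons was Ltf, a gene of tear gland epithelium, which fell from 850.2 ± 84.3 in VAS WT to 98.5 ± 9.03 in VAD WT and 371 ± 30.2 in VAS Stra6-/- (log2 fold changes -3.10 and -1.19).

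**Figure D5:**
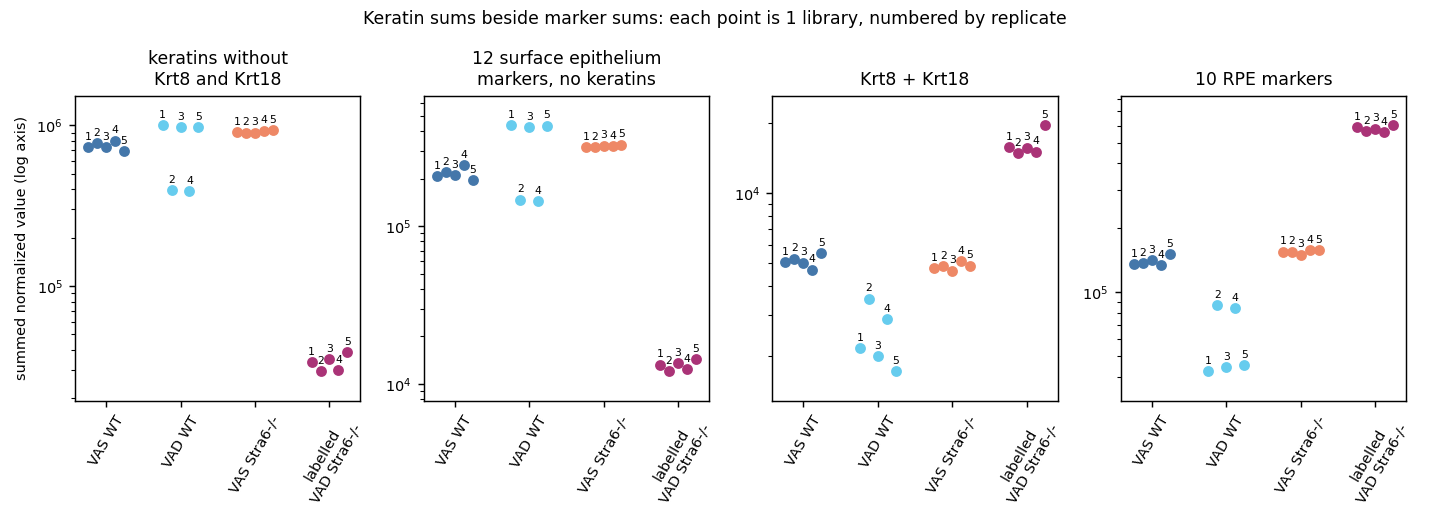
Each point is the summed normalized value of 1 library on a log axis, numbered by replicate, for the keratins without Krt8 and Krt18, 12 surface epithelium markers, Krt8 with Krt18, and 10 RPE markers. The keratin sum and the surface markers have the same order of groups, with 3 VAD WT libraries high and replicates 2 and 4 low, while Krt8 with Krt18 and the RPE markers are highest in the libraries labelled VAD Stra6-/- and lowest in VAD WT.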

How the data were processed

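RNA-seq was made by the study from outer eyecups, 5 libraries in each of 4 groups, with oligo(dT) selection and paired reads of 150 bases. Per the submitters' processing notes and the methods, reads were aligned with STAR 2.5.3a to GRCm38 and counted per gene with RSEM 1.2.30. The deposited signal is the authors' gene count divided by 1 DESeq2 (1.32.0) size factor per library. Whole reads (100% of values within 0.001) were recovered in 19 of the 20 libraries. VAD Stra6-/- replicate 1, whose step was close to 1, was left out of count tests. The depth was 13331903 to 21878614 reads.

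Here log2(value + 1) was fitted with limma 3.58.1 (R 4.3.3; trend, 1 mean per group, all 20 libraries) over 18745 genes with a sum of at least 5, with Benjamini-Hochberg adjustment. Fold changes of low genes are understated on this scale. The alternatives were edgeR 4.0.16 and DESeq2 1.42.0 on the recovered reads, other filters and pseudocounts, fits of 2 groups, a replicate block and left-out libraries. The code was tested on simulated data. Replicate numbers did not pair the libraries. That each library is a separate mouse comes from the methods and not from the labels, and was not tested. The libraries labelled VAD Stra6-/- each held both the female transcript Xist and the Y-linked Ddx3y. For them, 1 mouse per library therefore cannot be taken as given. The p-values measure the spread between libraries, which is a spread between animals only where each library is a separate mouse. Keratins with a mean of at least 100 in a group were named, with Krt8, Krt18, Stra6 and the 3 largest calls per direction, and lower ones are given by counts. Low keratins and list genes given by value beyond these were chosen after their values were seen. The members and gene lists were chosen with earlier results of these data known.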

Additional observations from a re-analysis of the deposited data

Results flagged for a closer look

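A single library stood far from the other 4 of its group in 4 of 84 sets of values tested, where chance gives about 1 in 20. Krt10 was at 149 in VAS WT replicate 4 (next highest 116) and Krt78 at 1219 in the same library (next 1076). In the libraries labelled VAD Stra6-/-, replicate 5 held Krt17 at 482 (next 298) and Krt18 at 14559 (next 11454).

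The diet difference in Stra6-/- and in WT differed for 20 keratins by the interaction term of the limma fit. In log2 units it was 3.16 for Krt8 and 2.72 for Krt18, both more positive in Stra6-/-. The corneal, basal and mucosal members had negative values, -7.16 for Krt12, -5.31 for Krt5, -3.01 for Krt14, -2.88 for Krt15, -5.08 for Krt78, -2.67 for Krt13 and -1.17 for Krt4. Stress and companion layer members were at -4.61 (Krt6a), -4.39 (Krt6b), -2.10 (Krt16), -2.33 (Krt17) and -2.72 (Krt75). The others were Krt80 (-5.05), Krt7 (-2.57), Krt19 (-1.83), Krt10 (-0.84, a call lost without any of 6 single libraries) and the low genes Krt20 (-4.16) and Krt32 (-2.88). All rest on the libraries labelled VAD Stra6-/-, whose Stra6 level was higher than that of VAD WT although the label names the knockout. The part of RPE content in that level was not tested.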

How the results depend on the processing

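Of 79 called values of named keratins, 72 kept their direction and call under all alternatives run, 7 lost the call under at least 1, and none reversed. A log2 fold change beyond 2 left 1 keratin higher and 0 lower in VAS Stra6-/- against VAS WT, 1 lower in VAD WT, 0 higher against VAS Stra6-/- and 3 higher against VAD WT, since it demands more. VAS Stra6-/- had 9 higher in place of 5 both without VAD WT replicates 2 and 4 (chosen with the split known) and in a fit of 2 groups. VAD WT had 0 higher, 1 with DESeq2 and 6 without replicates 2 and 4. Higher than VAD WT were 5, but 3 with edgeR, with a mean of at least 10 or with 2 groups, and 2 with DESeq2. The interaction called 2 higher, and 4 without VAD WT replicates 2 and 4. The causes were not tested. Leaving out 1 library gave 0 to 1 higher in VAD WT (1 without VAD WT replicate 4), 2 to 6 against VAD WT (3 without VAD WT replicate 1, 3 or 5 or labelled replicate 4 or 5, and 2 without its replicate 2) and 2 to 4 in the interaction (4 without VAS WT replicate 3 or VAD WT replicate 4). The numbers shared by the replicates did not pair the libraries (correlations of -0.18 to 0.13). A replicate block gave 5 higher and 6 lower, 0 and 14, 2 and 21, 5 and 19, and 3 and 18 in the interaction. TMM scaling moved the median of all genes by at most 0.026 in size. Genes under about 3 reads cannot show a difference at this depth.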
